A study of Mus musculus with 12 samples.

Results

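The genes described here belong to cyclic GMP and cyclic AMP signalling. They are both subunits of soluble guanylate cyclase (Gucy1a3 and Gucy1b3), the cGMP-dependent protein kinase Prkg1, its substrate Vasp and 6 phosphodiesterases (Pde3a, Pde3b, Pde4b, Pde4d, Pde5a and Pde10a). The members were chosen by name, and the choice drew on their levels in P2+ cells, because Gucy1b3 and Pde10a stood among the largest rises in that fraction. These 10 symbols occupied 11 of the 41128 rows of the count table, since Pde4d stood on 2 rows. Of the 11 rows, 10 passed the minimum on counts in every comparison and were fitted, and Pde3a did not pass in any.

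Soluble guanylate cyclase is a dimer of an alpha and a beta subunit that makes cGMP when nitric oxide binds to its heme. In platelets and megakaryocytes cGMP activates the kinase encoded by Prkg1, which phosphorylates Vasp, a regulator of actin filaments, and this pathway restrains platelet activation together with cAMP and its kinase. Phosphodiesterases break the cyclic nucleotides down. Pde5a acts on cGMP, members of the Pde4 family act on cAMP, Pde10a acts on both, and the Pde3 enzymes act on cAMP and are inhibited by cGMP.

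PreMegEs, the bone marrow progenitors that give rise to megakaryocytes and erythroid cells, were sorted from adult C57BL/6 mice of 12 to 16 weeks in 4 groups of 3 libraries. The paper states 3 pooled mice per RNA-seq sample, and its account of the RNA-seq covers WT, P2- and P2+ but not KO. WT PreMegEs came from wild type mice without a reporter. P2- and P2+ PreMegEs came from Runx1 P1-GFP::P2-hCD4/+ mice, in which 1 Runx1 allele reports the distal promoter P1 by GFP and the proximal promoter P2 by human CD4. Both fractions were P1-GFP positive and were separated by hCD4. The paper refers to Runx1 haploinsufficiency in cells of these mice, whereas WT cells carry no reporter allele. In P2+ or P2- against WT, the reporter genotype and P2 activity cannot be told apart. The KO PreMegEs came from mice labelled RUNX1C knockout, which the study made by homozygous insertion of GFP at P1 so that the P1 isoform RUNX1C is missing. Comparisons between P2+ and P2- ask how the genes differ with P2 activity, and KO against WT asks how they differ without RUNX1C. Runx1 itself was counted over both promoters together, with 369 ± 15.6 CPM (counts scaled by the TMM-adjusted library size) in WT, 360 ± 20.4 in KO, 211 ± 7.41 in P2- and 631 ± 24.2 in P2+ (mean ± SD of 3 libraries), so this count does not check the KO label.

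Libraries held between 10726098 and 14445026 counts, and a count of 0 allows up to 3 counts, or 0.207 to 0.288 CPM, which covers counting error only. Replicate 2 of P2- and of P2+ stood apart from the other libraries, with 13100 and 8850 CPM summed over 10 immediate early genes such as Fos against 167 to 1240 in the other 10 libraries. Summed over 12 megakaryocyte markers such as Pf4, the libraries held 287 to 359 CPM in P2-, 630 to 647 in KO, 757 to 861 in WT and 1180 to 1700 in P2+, and Gp6 was at 0 in all P2+ libraries. Single markers differed from this order. Pf4 had 71.9 CPM in P2+ and 73.5 in WT as group means, and Tubb1 5.2 and 6.91. Ppbp was lower in P2+ (3.99 CPM) than in WT (9.73, edgeR adjusted p = 0.00472). In KO, Gp5 (246 against 187 CPM in WT, adjusted p = 9.61e-04) and Ppbp (15.8 against 9.73, adjusted p = 0.0374) were higher. Of 11 tested, 7 were higher and 1 lower in P2+ against WT (all genes, 9.45% and 7.07%), and 2 higher and 6 lower in KO (6.18% and 8.76%). The 11 erythroid markers found, among them Klf1, summed to 5850 to 6670 CPM in P2-, 5630 to 6330 in KO, 3320 to 3820 in WT and 1300 to 1460 in P2+. Summed over 8 mast cell and basophil markers, the libraries held 24.5 to 28.3 CPM in P2-, 26.9 to 46.9 in WT, 47.3 to 64.2 in KO and 84.3 to 137 in P2+. Cma1, Mcpt4 and Tpsb2 were at 0 in every group. Most of the P2+ sum was Ms4a2 (70.6 CPM) and Cpa3 (39.1), which were also higher in KO than in WT (1.64-fold, edgeR adjusted p = 0.0469, and 1.97-fold, 6.06e-05). Fcer1a (3.76 CPM in WT, 1.91 in P2+ and 0.0855 in KO), Prss34 (0.606, 0.0993 and 0) and Mcpt8 (0.206, 0.0508 and 0.119) had their highest means in WT. The 10 neutrophil and monocyte markers summed to 27.0 to 69.5 CPM in P2-, 30.5 to 68.9 in KO, 85.4 to 208 in WT and 117 to 262 in P2+, and the 10 lymphoid markers to 11 to 17.0, 18.0 to 21.8, 25.2 to 40.0 and 28.4 to 80.9, with Cd8a at 0 in every group. Among the neutrophil and monocyte markers, Mpo and Prtn3 had their highest means in P2+ (104 and 35.4 CPM). S100a8, S100a9, Camp and Ltf had theirs in P2- (1.53 to 5.14 CPM), with an SD above each mean. In bulk RNA a larger share of cells of a type and more RNA per cell cannot be told apart. Of the genes whose proteins define the gate, Kit (813 to 1090 CPM as group means) and Slamf1 (36.0 to 59.1 CPM) were present and Ly6a (1.14 to 3.31 CPM) was low in all groups. Eng, whose protein is gated out at the surface, had 104 to 128 CPM of RNA, which goes against the gate at the level of RNA. Slamf1 was 1.63-fold higher in KO than in WT (edgeR adjusted p = 7.51e-05), and Fcgr2b, of the gated-out CD16/32 receptors, was 2.22-fold higher in P2+ than in P2- (edgeR adjusted p = 5.11e-04). Itga2b, the gene of the gated-out CD41 and also a megakaryocyte marker, had 51.0 to 282 CPM as group means, and it was 5.58-fold higher in P2+ than in P2- (edgeR adjusted p = 1.21e-05). The part of these markers in the results below was not tested, and the sources used here do not say whether KO libraries were sequenced together with the others. The KO sample numbers do not run on from those of the other groups. If KO was prepared apart, a batch and the knockout cannot be told apart in KO against WT.

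The genes of both cyclase subunits lay next to each other on chromosome 3 of GRCm38. Gucy1b3 (ENSMUSG00000028005, named Gucy1b1 in GENCODE vM21) ran from 82032006 to 82074689 and Gucy1a3 (ENSMUSG00000033910, named Gucy1a1) from 82092427 to 82145789, both on the minus strand, with 17737 bases and 0 annotated genes between them. Pde10a (ENSMUSG00000023868) ran from 8525372 to 8986648 on the plus strand of chromosome 17. The promoter windows of these 3 genes (RefSeq, GRCm38.p6, each around an annotated start and mostly upstream of it) are printed because they are the members that differed most between P2+ and P2- and because Runx1 is the gene whose promoters define the groups. Capitals mark TGTGGT or TGCGGT, or their reverse complements, the letters searched for RUNX on both strands.
Gucy1b3, chr3:82074662-82074961, minus strand: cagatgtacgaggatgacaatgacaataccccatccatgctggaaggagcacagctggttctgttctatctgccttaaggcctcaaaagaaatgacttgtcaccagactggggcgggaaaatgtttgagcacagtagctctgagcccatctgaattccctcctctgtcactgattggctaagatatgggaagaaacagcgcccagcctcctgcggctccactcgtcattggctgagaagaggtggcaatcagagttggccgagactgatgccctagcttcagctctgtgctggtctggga
Gucy1a3 window 1, chr3:82145601-82145900, minus strand: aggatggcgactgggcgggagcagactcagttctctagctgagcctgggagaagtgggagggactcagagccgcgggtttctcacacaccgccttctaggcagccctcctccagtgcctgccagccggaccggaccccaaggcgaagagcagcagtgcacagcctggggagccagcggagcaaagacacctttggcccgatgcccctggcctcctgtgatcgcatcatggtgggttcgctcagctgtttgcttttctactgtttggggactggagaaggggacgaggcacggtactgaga
Gucy1a3 window 2, chr3:82145024-82145323, minus strand: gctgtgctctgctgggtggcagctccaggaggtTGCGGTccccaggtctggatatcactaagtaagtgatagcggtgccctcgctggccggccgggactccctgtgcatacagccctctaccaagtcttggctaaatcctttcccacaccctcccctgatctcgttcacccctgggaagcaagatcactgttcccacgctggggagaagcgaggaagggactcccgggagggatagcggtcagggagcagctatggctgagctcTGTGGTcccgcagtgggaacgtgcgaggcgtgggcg
Pde10a window 1, chr17:8801495-8801794, plus strand: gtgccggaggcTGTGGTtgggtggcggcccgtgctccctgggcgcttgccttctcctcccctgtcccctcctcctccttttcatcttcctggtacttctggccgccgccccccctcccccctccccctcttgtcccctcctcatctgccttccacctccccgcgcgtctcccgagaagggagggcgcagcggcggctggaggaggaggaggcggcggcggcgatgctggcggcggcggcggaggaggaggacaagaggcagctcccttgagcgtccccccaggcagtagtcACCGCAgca
Pde10a window 2, chr17:8849735-8850034, plus strand: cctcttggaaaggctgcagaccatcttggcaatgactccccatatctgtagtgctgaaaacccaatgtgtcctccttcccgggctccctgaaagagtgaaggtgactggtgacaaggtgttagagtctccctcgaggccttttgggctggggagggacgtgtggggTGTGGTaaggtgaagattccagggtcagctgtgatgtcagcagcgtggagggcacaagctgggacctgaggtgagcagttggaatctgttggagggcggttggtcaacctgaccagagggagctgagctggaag

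The Gucy1b3 window and the first Gucy1a3 window held 0 matches to the RUNX letters, the second Gucy1a3 window held 2, and the Pde10a windows held 2 and 1. Over all 32851 windows of the same length, 7362 (22.4%) held at least 1 match, so such letters are common. The 14 windows found for 8 of the members held 1 further match, in the third of 4 windows of Pde4b. Matches to AGATAA or TGATAA, searched for GATA factors, were present in 1 window each of Pde4d and Prkg1 and in 18.6% of all windows. AGGAAG or CGGAAG, searched for ETS factors, were present in windows of Gucy1a3, Pde4b, Pde5a, Pde10a, Prkg1 and Vasp and in 46.5% of all windows. The motifs were chosen with the expression values known, and a match is a description of letters and not of binding.

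Gucy1b3, the beta subunit, had 1.03, 1.06 and 1.55 CPM in the P2- libraries and 18.0, 18.0 and 32.2 CPM in the P2+ libraries, in order of replicate. In WT it had 8.45, 9.71 and 9.32 CPM and in KO 5.85, 8.30 and 7.28 CPM. The P2- libraries were the lowest and the P2+ libraries the highest, no library of either overlapped WT, and the highest KO library stayed just under the lowest WT library. As a description without a test, since these values chose the gene, the log2 fold change of P2+ against P2- was 4.21 (standard error 0.32), or 18.5-fold. Against WT it was 1.32 (standard error 0.23) in P2+ and -2.89 (standard error 0.27) in P2-. Both of these share the WT libraries, as does KO against WT. Replicate 3 was the highest of the P2+ libraries in Gucy1b3 and in the summed megakaryocyte markers, and without it the log2 fold changes of P2+ were 3.88 against P2- and 0.98 against WT.

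Gucy1a3, the alpha subunit, had the same order of groups at higher counts. It had 7.24, 6.63 and 8.40 CPM in P2-, 18.7, 27.4 and 19.7 in KO, 35.3, 40.1 and 42.8 in WT, and 83.4, 75.3 and 125 in P2+. No group overlapped another. On the log2 scale P2+ exceeded P2- by 3.68 (standard error 0.21), or 12.8-fold, and without P2+ replicate 3 it was 3.43. Relative to WT, log2 values were 1.27 (standard error 0.17) in P2+ and -2.40 (standard error 0.15) in P2-. Gucy1a3 shares 1 exonic base with the microRNA gene Mir7010, and Gucy1b3 overlaps no annotated gene.

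Levels of both subunits can be compared only per length. Computed as RPKM with the exonic length over all transcripts, Gucy1a3 exceeded Gucy1b3 by a ratio of 2.42 ± 0.142 in WT, 3.51 ± 0.449 in P2-, 2.39 ± 0.209 in P2+ and 1.73 ± 0.176 in KO (mean ± SD, n = 3 each). The WT and P2+ ratios overlapped (2.33 to 2.58 and 2.2 to 2.61), the P2- libraries lay above both (3.05 to 3.95) and the KO libraries below both (1.53 to 1.86). The log2 ratio differed by -0.49 between KO and WT (exact two-sided permutation test, p = 0.1, below which no comparison of 3 with 3 libraries can go). The ratio depends on the length used and was 2.94, 4.26, 2.90 and 2.10 in WT, P2-, P2+ and KO with the longest transcript of each gene, while the order of the groups stayed the same. The P2- ratio rests on 11 to 22 counts of Gucy1b3 per library.

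Prkg1 (ENSMUSG00000052920, chromosome 19 from 30564489 to 31765033), the kinase that cGMP activates, had 12.5, 7.97 and 12.3 CPM in P2-, 14.4, 17.4 and 13.4 in KO, 29.7, 31.0 and 32.0 in WT and 44.1, 41.3 and 54.4 in P2+. The groups followed the same order as both cyclase subunits, with KO close above P2- and no overlap between groups. Log2 fold changes of P2+ were 2.10 against P2- (standard error 0.19) and 0.60 against WT (standard error 0.12), and that of P2- against WT was -1.49 (standard error 0.17). Vasp (ENSMUSG00000030403, chromosome 7 from 19256929 to 19271817), its substrate, differed less. Vasp had 63.9, 87.0 and 64.2 CPM in P2-, 70.0, 77.6 and 76.5 in KO, 89.3, 80.7 and 87.0 in WT and 96.4, 120 and 106 in P2+. The P2+ libraries lay above all others, and replicate 2 of P2- reached the WT range. Vasp had log2 fold changes of 0.59 (standard error 0.14) for P2+ against P2-, 0.33 (standard error 0.09) for P2+ against WT and -0.26 (standard error 0.12) for P2- against WT.

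**Figure D1:**
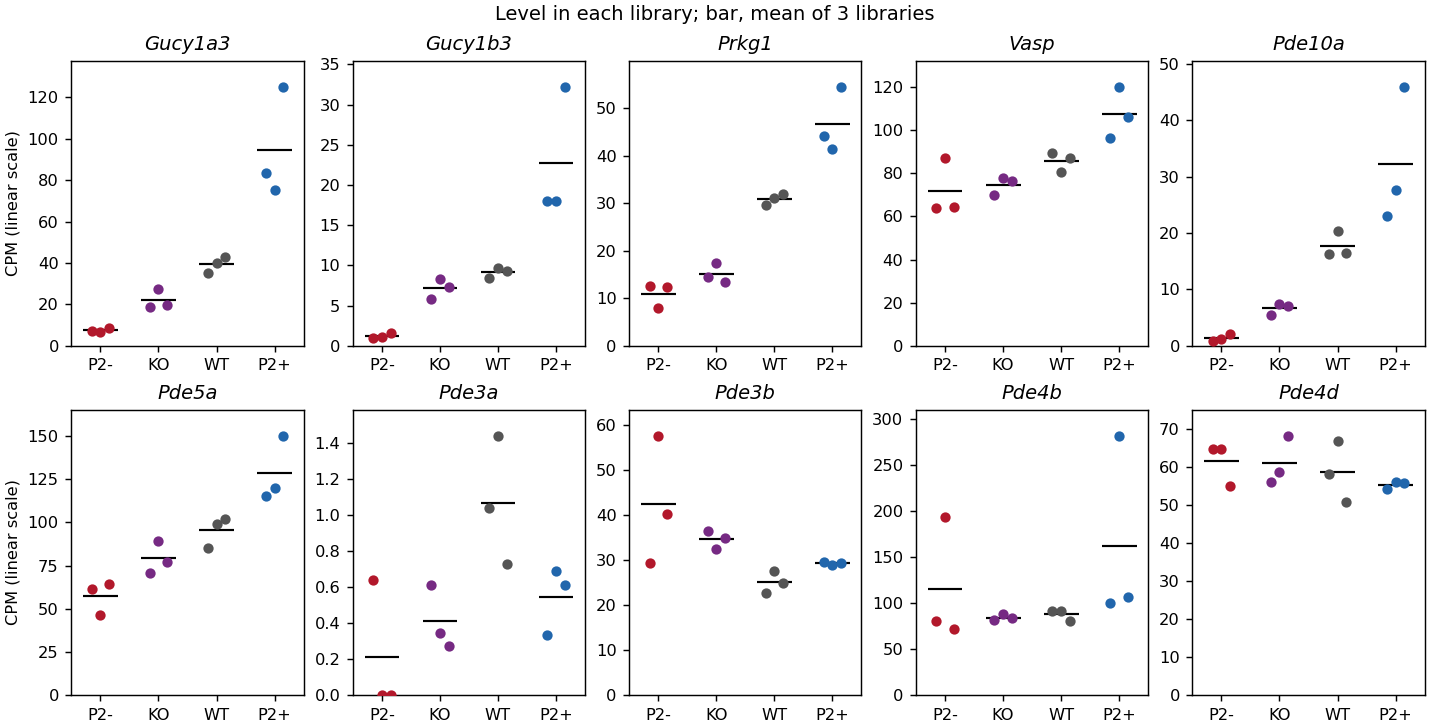
Level of the 10 members in each library, in CPM on a linear axis that starts at 0 in each panel, with 1 point per library and a bar at the mean of the 3 libraries of a group. In Gucy1a3, Gucy1b3, Prkg1 and Pde10a the means stand in the order P2-, KO, WT and P2+, Pde4b stands apart in 1 library each of P2- and P2+, and Pde4d stays between 50.8 and 68.1 CPM.

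Among the phosphodiesterases, Pde10a differed most. It had 0.876, 1.25 and 2.05 CPM in P2-, 5.50, 7.44 and 7.10 in KO, 16.2, 20.3 and 16.5 in WT and 23.1, 27.7 and 45.9 in P2+. The groups did not overlap, although P2+ replicate 1 was close above the highest WT library. For P2+ against P2- the log2 fold change was 4.52 (standard error 0.37), or 22.9-fold, with 11 to 29 counts per library in P2-. It was -3.64 (standard error 0.28) for P2- against WT and 0.87 (standard error 0.23) for P2+ against WT. As in both cyclase subunits, the log2 distance from WT was larger on the P2- side. Without P2+ replicate 3, again the highest library, the log2 fold change of P2+ against WT was 0.53, and without P2- replicate 3 that of P2- against WT was -4.06 in Pde10a and -3.12 in Gucy1b3.

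Pde5a (ENSMUSG00000053965, chromosome 3 from 122728947 to 122859374), the phosphodiesterase specific for cGMP, was abundant in all groups. It had 61.4, 46.6 and 64.5 CPM in P2-, 70.8, 89.4 and 77.0 in KO, 85.1, 99.1 and 102 in WT and 115, 120 and 150 in P2+. The P2- libraries were the lowest and the P2+ libraries the highest, and KO overlapped WT in 1 library. In P2+ the log2 fold change was 1.17 (standard error 0.14) against P2- and 0.43 (standard error 0.11) against WT, and that of P2- against WT was -0.73 (standard error 0.12). Pde5a shares 55 exonic bases with 4930447N08Rik on the other strand, and whether the counting used the strand is not given in the sources used here.

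Pde3b (ENSMUSG00000030671, chromosome 7 from 114415281 to 114539251) had an order of its own, with WT lowest. It had 22.7, 27.5 and 24.8 CPM in WT, 29.5, 28.9 and 29.3 in P2+, 36.4, 32.5 and 34.9 in KO and 29.3, 57.5 and 40.2 in P2-. The P2- libraries were spread widely, with replicate 1 at the P2+ level and replicate 2, one of the libraries high in immediate early genes, at the top. Its log2 fold change was 0.76 (standard error 0.21) for P2- against WT and 0.47 without P2- replicate 2, 0.23 (standard error 0.12) for P2+ against WT, and -0.52 (standard error 0.21) for P2+ against P2-. Without replicate 2 of both fractions the last value was -0.22. Pde3a, the other cGMP-inhibited enzyme and the form best known from platelets, was scarcely detected. It had 15, 17 and 10 counts in WT, 8, 0 and 0 in P2-, 4, 10 and 8 in P2+ and 7, 4 and 3 in KO, or at most 1.44 CPM, and it shares 741 exonic bases with Gm28523 on the other strand. It was too low to be tested. In CPM every WT library (at least 0.728) lay above every other library (at most 0.69). The 2 libraries that set this gap, WT replicate 3 and P2+ replicate 2, both held 10 counts, so it is within counting error.

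The enzymes of the Pde4 family, which act on cAMP, did not follow the order of the cyclase. Pde4d (ENSMUSG00000021699, chromosome 13 from 108449948 to 109953461) had 50.8 to 66.9 CPM in WT, 55.0 to 64.8 in P2-, 54.2 to 56.0 in P2+ and 56.0 to 68.1 in KO, and its groups overlapped. Its log2 fold changes were -0.14 (standard error 0.10) for P2+ against P2-, -0.08 (standard error 0.10) for P2+ against WT and 0.07 (standard error 0.11) for P2- against WT. The row named here Pde4d second row (ENSMUSG00000074661, not found in vM21) had between 23.7 and 41.2 CPM in all libraries and also overlapped between all groups. Pde4b (ENSMUSG00000028525, chromosome 4 from 102087543 to 102607259) had 90.9, 91.5 and 80.8 CPM in WT, 81.3, 87.7 and 83.1 in KO, 80.2, 193 and 71.2 in P2-, and 99.4, 281 and 106 in P2+. In both reporter fractions replicate 2 was far above the others, by 2.55 times their mean in P2- and 2.74 times in P2+, whereas the same ratio was 1.07 in WT and 1.07 in KO. These were the libraries with the high immediate early genes. The Pde4b log2 fold change for P2+ against WT, 0.90 (standard error 0.33), was 0.23 without P2+ replicate 2, and that of P2- against WT, 0.39 (standard error 0.30), was -0.22 without P2- replicate 2. For P2+ against P2- it was 0.51 (standard error 0.47), -0.14 without P2+ replicate 2, 1.11 without P2- replicate 2 and 0.47 without replicate 2 of both fractions, and in each same-numbered pair the P2+ library was the higher.

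**Figure D2:**
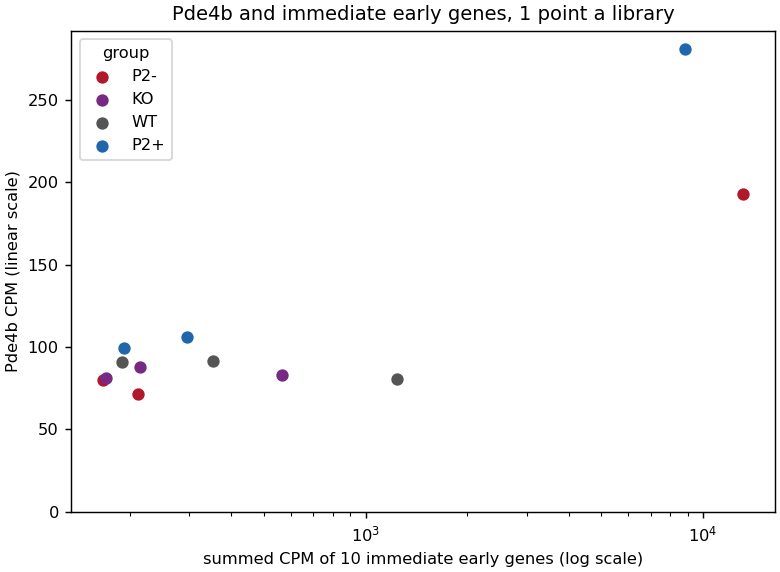
Pde4b in CPM (linear axis) against the summed CPM of 10 immediate early genes (log axis), 1 point per library coloured by group. Replicate 2 of P2- (193 CPM) and of P2+ (281 CPM) lie at the upper right, and the other 10 libraries lie between 71.2 and 106 CPM of Pde4b and 167 and 1240 CPM of the immediate early genes.

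Compared per length, Vasp was the most abundant member in WT with 32.7 RPKM (SD 1.71, n = 3), followed by Pde5a with 9.72 (SD 0.934), Pde4b with 8.31 (SD 0.572) and Gucy1a3 with 5.65 (SD 0.545). Pde4d had 4.88 RPKM (SD 0.672), Prkg1 2.84 (SD 0.107), Pde3b 2.74 (SD 0.264), Gucy1b3 2.33 (SD 0.164) and Pde10a 1.38 (SD 0.175), and Pde3a had 0.0838 (SD 0.0278). Pde5a and Pde4b, Gucy1a3 and Pde4d, and Prkg1 and Pde3b were neighbours in this order whose WT libraries overlapped. The order depends on the length, and with the longest transcript Pde4b (20.4 RPKM) and Pde4d (13.9) stood above Pde5a (12.6) in WT, after Vasp (38.7). In P2+ the alpha subunit reached 13.6 RPKM (SD 3.86, n = 3), above Pde5a with 13 (SD 1.96) by less than the spread, and in P2- it had 1.07 (SD 0.129) while Pde5a had 5.85 (SD 0.974).

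The 21 genes of catalytic phosphodiesterases summed to 45.3 ± 1.41 RPKM in WT, 42.4 ± 7.88 in P2-, 59.1 ± 9.38 in P2+ and 42.0 ± 0.937 in KO (SD, n = 3 each). Pde5a made up 21.5% of this sum in WT, 14.4% in P2-, 22.5% in P2+ and 19.1% in KO. Pde4b made up 17.1% to 19.5% of it in WT and 18.6% to 19.4% in KO, but 35.6% in P2- replicate 2 and 38.1% in P2+ replicate 2. Pde10a, which had the largest fold change, was a small part throughout, with 3.03% in WT, 4.33% in P2+, 1.24% in KO and 0.265% in P2-. Pde3b took 6.06% in WT, 10.8% in P2-, 5.51% in P2+ and 9.06% in KO. The cAMP enzyme Pde4a, which is no member, took 16.0% in WT and 9.70% in P2+. The shares depend on the length, and with the longest transcript Pde4b took 26.1% and Pde5a 16.1% in WT. The second Pde4d row has no length in vM21 and was left out.

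**Figure D3:**
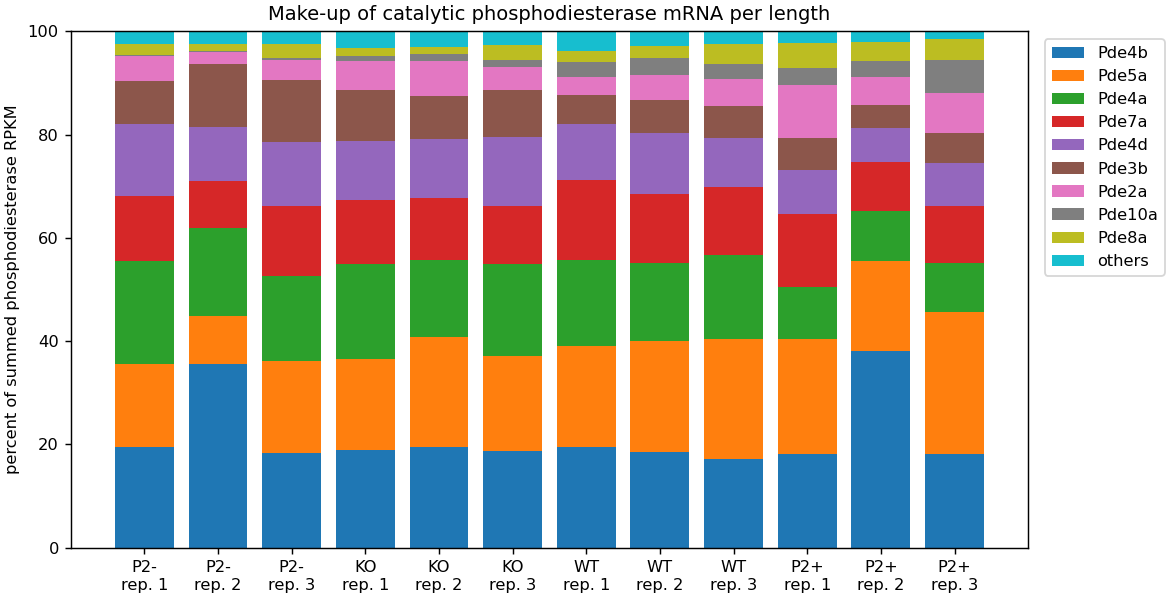
Share of each gene in the summed RPKM of 21 catalytic phosphodiesterases, in percent, as 1 stacked bar per library, with the less abundant genes joined as others. Pde4b (lowest segment) takes 35.6% and 38.1% in replicate 2 of P2- and P2+, and Pde10a takes 4.33% on average in P2+ and 0.265% in P2-.

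KO against WT uses neither reporter fraction, so it is the comparison in which the members were tested (edgeR's quasi-likelihood test, Benjamini-Hochberg adjustment over 12784 genes). Of the 10 rows tested, 4 fell and 1 rose in KO at an adjusted p under 0.05, where 8.76% of all genes tested fell and 6.18% rose. Their median log2 fold change was -0.24, beside 0.00 over all genes. Pde10a fell by 1.41 on the log2 scale (standard error 0.18, edgeR adjusted p = 2.76e-05) and had 37.8% of its WT mean. Prkg1 fell by 1.04 (standard error 0.13, edgeR adjusted p = 1.83e-05) to 48.7% of its WT mean, and Gucy1a3 fell by 0.85 (standard error 0.14, edgeR adjusted p = 3.19e-04) to 55.7%. For these 3 genes every KO library lay below every WT library, a separation whose share over all genes was not computed. The call of each was kept under each alternative run except the 2-fold minimum, which Gucy1a3 did not reach.

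Gucy1b3 moved less than its partner subunit in KO. The value for Gucy1b3 was -0.37 (standard error 0.20), and edgeR's adjusted p of 0.259 missed the threshold, with all 3 KO libraries below the WT libraries. Leaving out a library did not bring it past the threshold (adjusted p 0.198 to 0.582). Pde5a fell by 0.28 (standard error 0.09, edgeR adjusted p = 0.0490), but this call was lost without WT replicate 2 (adjusted p = 0.149), WT replicate 3 (0.152), KO replicate 1 (0.231) or KO replicate 3 (0.179), with DESeq2 size factors (0.0537) and with all 12 libraries in the fit (0.214). Pde3b rose by 0.46 (standard error 0.11, edgeR adjusted p = 0.00877), with every KO library above every WT library, and lost its call when all 12 libraries were fitted together (adjusted p = 0.143). Vasp (log2 fold change -0.21, adjusted p = 0.0818), Pde4b (-0.07, 0.602) and Pde4d (0.05, 0.819, and -0.14, 0.418 for the second row) did not pass the edgeR test. The erythroid and the mast cell and basophil markers summed to more CPM in KO than in WT, as given above. The megakaryocyte, neutrophil and monocyte, and lymphoid markers summed to less, with single markers going the other way. The part of these markers in the differences of the members was not tested.

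**Figure D4:**
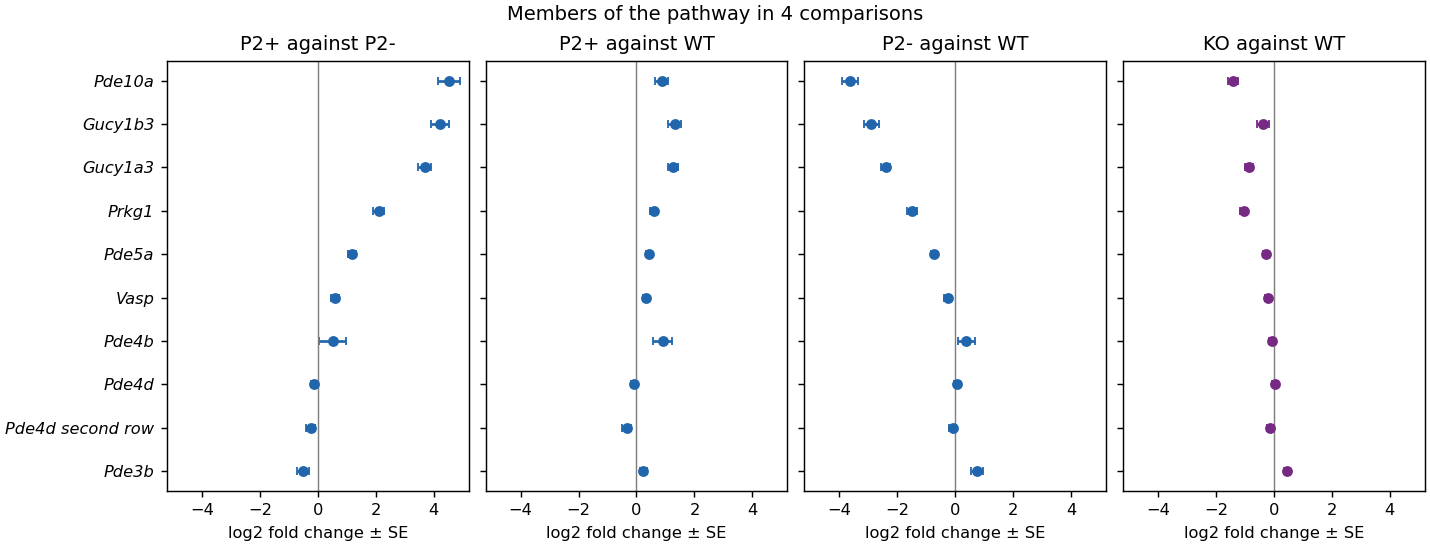
Log2 fold change (points) with its standard error (bars) of the 10 fitted rows in P2+ against P2-, P2+ against WT, P2- against WT and KO against WT, on 1 shared axis. In KO against WT, Pde10a (-1.41), Prkg1 (-1.04) and Gucy1a3 (-0.85) lie left of 0 and Pde3b (0.46) right of it, and the first 3 comparisons are descriptions, since values in P2+ chose the members.

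At the same threshold, P2+ against P2- had 6 rows above and 0 below (all genes tested, 20.1% and 17.0%), P2+ against WT had 6 above and 0 below (9.45% and 7.07%), and P2- against WT had 1 above and 5 below (6.85% and 9.6%). The choice of the members used these contrasts, so nothing is read from the counts. The WT mean lay 36.6% of the way from P2- to P2+ in Gucy1a3, 36.9% in Gucy1b3, 52.8% in Pde10a, 53.7% in Pde5a, 56.0% in Prkg1 and 39.2% in Vasp, in CPM. In each of these genes except Vasp, no WT library reached P2- or P2+. The share of all genes that separate in this way was not computed, so nothing is read from it. WT also differed from both fractions in the reporter genotype.

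Over the 12 libraries, the genes whose log2 CPM followed Gucy1b3 most closely, among 9530 genes with a mean of at least 10 CPM, were Slc35d3 (Pearson r 0.989), Kcnj5 (0.987), Ptgs1 (0.986), F2rl2 (0.981) and Fyb (0.978). Gucy1a3 ranked 6 with 0.977 and Pde10a ranked 9 with 0.975. For Pde10a they were Sdpr (0.993), F2rl2 (0.990), Plek (0.987), Gnaz (0.985) and Fyb (0.980). Prkg1 ranked 308 for Gucy1b3 (0.894) and 150 for Pde10a (0.932). Other members followed them less closely or ran the other way. Pearson r with Gucy1b3 was 0.946 for Pde5a, 0.728 for Vasp, 0.141 for Pde4b, -0.308 for Pde4d and -0.596 for Pde3b. With Pde10a it was 0.939 for Pde5a, 0.757 for Vasp, 0.163 for Pde4b, -0.266 for Pde4d and -0.642 for Pde3b. These are descriptions across libraries that fall into 4 groups, and how much of each r comes from the distance between the groups was not tested.

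The rest of the pathway was read from a list of 90 genes that make, bind, break down or relay cyclic nucleotides and are no members, of which 54 were tested between P2+ and P2-. In P2+, 23 rose and 6 fell, with a median log2 fold change of 0.18 beside -0.02 over all genes tested, of which 20.1% rose and 17.0% fell. Without replicate 2 of both fractions, which stood apart, 24 were called. Against WT, P2+ had 4 genes that rose (Pde2a, Pde8a, Prkar2b and Adora2a) and 4 that fell (among them Adcy7, Rapgef3 and Abcc5) among 54 tested, where 9.45% of all genes rose and 7.07% fell, with a median of 0.10 beside 0.00. The call of Pde8a there was lost without WT replicate 1 or 2 or any P2+ replicate (adjusted p 0.0528 to 0.122), that of Prkar2b without WT replicate 1 (0.0693) or by exactTest (0.0657), and that of Abcc5 without WT replicate 1 (0.0929) or 2 (0.081) or P2+ replicate 1 (0.0622). P2- had 1 that rose and 11 that fell among 52 tested, where 6.85% of all genes rose and 9.6% fell, with a median of -0.12 beside 0.01. KO had 5 that rose (among them Adcy7, Abcc4, Ptger4 and Ptgir) and 8 that fell among 53 tested, where 6.18% of all genes rose and 8.76% fell, with a median of -0.10 beside 0.00. Genes that passed the minimum on counts through 1 group alone are in these counts, and their calls are not read as results. They are Pkib and Rapgef4 in P2+ against P2-, Pkib in P2- against WT and Ptger2 in KO against WT. These counts moved by over 1.5 times when single libraries were left out, with 18 and 17 calls in P2+ against P2- without P2+ replicate 1 and 3, 4, 5, 5 and 13 in P2+ against WT without WT replicate 1, WT replicate 2, P2+ replicate 1 and P2+ replicate 2, and 4, 5, 6 and 7 in P2- against WT without WT replicates 1, 2 and 3 and P2- replicate 1. All of these p-values except the one by exactTest come from edgeR's quasi-likelihood test with Benjamini-Hochberg adjustment over all genes tested.

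Other genes that make cGMP or nitric oxide had few counts. Of 8 further guanylate cyclase genes, Npr2, a receptor for natriuretic peptide, was the most abundant with 3.54 ± 0.235 CPM in P2+ (SD, n = 3), and its rise over P2- (log2 fold change 0.83) lost its call when any of the 6 libraries was left out (largest edgeR adjusted p = 0.125) and with the replicate number as a block (0.0583). Gucy1a2 and Gucy1b2, the other subunits of the soluble enzyme, and the nitric oxide synthases Nos1, Nos2 and Nos3 had group means of at most 0.216 CPM and were not tested. Among 10 adenylate cyclases, which make cAMP, Adcy7 was the most abundant in WT, P2- and KO, and in P2+ it had 190 CPM against 204 of Adcy6. Adcy7 had 349, 356 and 404 CPM in P2- and 182, 180 and 209 in P2+, and it fell in P2+ by 0.95 (standard error 0.09, edgeR adjusted p = 9.07e-05) against P2- and by 0.69 against WT, while in KO it rose by 0.41 (adjusted p = 5.60e-04). Adcy9 rose in P2+ over P2- by 0.62, a call lost without P2- replicate 2 or 3 or without P2+ replicate 1 or 3 (largest adjusted p = 0.12).

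Of the 18 further phosphodiesterase genes, 7 were tested, and 4 rose and 0 fell in P2+ over P2- (all genes, 20.1% and 17.0%). Pde2a, an enzyme that cGMP stimulates, had 7.88, 4.80 and 6.00 CPM in P2- and 21.9, 15.5 and 17.6 in P2+, a rise of 1.57 on the log2 scale (standard error 0.22, edgeR adjusted p = 7.60e-04). Pde2a also rose over WT, by 1.15 (adjusted p = 0.0043). Its identifier is named Gm45837 in vM21 and shares 3955 exonic bases with a gene named Pde2a there, so its count is uncertain. Pde8a, specific for cAMP, rose over P2- by 1.54 (standard error 0.22, adjusted p = 6.81e-04) and Pde7a, also specific for cAMP, by 0.47 (standard error 0.10, adjusted p = 0.00733). Pde1c, the fourth gene called, rose by 1.41 (adjusted p = 0.0287) at a P2+ mean of 4.51 CPM, a call lost without P2- replicate 1 (0.0865) or 3 (0.0935) or P2+ replicate 2 (0.0874) or 3 (0.0693). Pde7a fell in KO by 0.36 (adjusted p = 0.0181), a call lost without WT replicate 1 (0.0727) or KO replicate 3 (0.0877). Pde4a, the most abundant of these enzymes by CPM in WT, P2- and KO but below Pde7a in P2+ (43.8 against 51.7 CPM), differed by -0.38 (standard error 0.16) between P2+ and P2- (edgeR adjusted p = 0.0888, and 0.00321 with the replicate number as a block).

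Of the subunits and inhibitors of the cAMP-dependent kinase, 8 were tested, and 5 rose and 0 fell in P2+ over P2- (all genes, 20.1% and 17.0%). The largest changes were in 2 of the 3 inhibitor peptides. Pkia rose from 1.81 ± 0.607 CPM in P2- to 6.37 ± 1.95 in P2+ (SD, n = 3 each; 1.82 on the log2 scale, standard error 0.37, edgeR adjusted p = 0.00448). Pkib had 0.550 ± 0.254 CPM in P2- and 5.65 ± 2.47 in P2+ (SD, n = 3 each), as a description. It passed the minimum on counts only through the P2+ libraries and was not tested when any of these was left out. Its call, counted among the 5, is therefore not read as a result. The third, Pkig, was more abundant (28.3 to 32.2 CPM as group means) and differed by -0.17 (adjusted p = 0.227). The catalytic subunit Prkacb rose by 0.37 (adjusted p = 0.0045, and 0.0518 by exactTest) and fell in KO by 0.31 (adjusted p = 0.00118). The regulatory subunit Prkar2a rose by 0.28, a call lost without any 1 of 5 of the 6 libraries (largest adjusted p = 0.0702), Prkar2b rose by 0.27 (adjusted p = 0.0221, lost without P2- replicate 1 (0.0743) or 3 (0.0829) or P2+ replicate 3 (0.0595), and 0.218 by exactTest), and Prkar1a, the most abundant in WT, P2- and KO but below Prkar2b in P2+ (572 against 585 CPM), had a log2 fold change of 0.09 (adjusted p = 0.401).

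Rapgef3, a cAMP-activated exchange factor for Rap, had an order of its own. It had 29.4, 23.6 and 23.5 CPM in WT, 15.5, 15.8 and 12.9 in P2-, 10.3, 9.04 and 8.16 in P2+ and 9.69, 9.24 and 9.10 in KO. WT was highest and P2+ and KO overlapped. Rapgef3 fell in KO by 1.46 (standard error 0.15, edgeR adjusted p = 2.06e-06), in P2+ by 1.47 against WT (adjusted p = 2.08e-04) and by 0.67 against P2- (adjusted p = 0.0139), and in P2- by 0.79 against WT (adjusted p = 0.00575). Its fall against P2- lost the call without P2+ replicate 3 (log2 fold change -0.59, adjusted p = 0.0508) or without replicate 2 of both fractions (-0.60, 0.0577), and Rapgef3 shares exonic bases with Rapgef3os1 (236) and Rapgef3os2 (351) on the other strand. Rapgef4, a relative of Rapgef3, had 0.17 ± 0.16 CPM in P2- and 1.76 ± 0.421 in P2+ (SD, n = 3 each), as a description. It passed the minimum on counts only through the P2+ libraries, so it was not tested when any of these was left out. Its call is therefore not read as a result, and the fold from so few P2- counts is not given. Rapgef2 rose by 0.38 and the exporter Abcc5, the most abundant of this group, fell by 0.27 in P2+ against P2-, and both calls were lost on leaving out any 1 of several libraries (5 for Rapgef2 and 4 for Abcc5). Abcc4, a transporter of cyclic nucleotides found in platelet granules, rose in KO by 0.42 (adjusted p = 0.00484).

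Among 10 tested kinase substrates and cAMP response factors, 3 rose and 1 fell in P2+ over P2- (all genes, 20.1% and 17.0%). Mrvi1, a substrate of the cGMP kinase at the calcium store, had 2.39, 0.480 and 2.96 CPM in P2-, 6.29, 8.81 and 6.55 in KO, 14.8, 17.5 and 13 in WT and 12.7, 12.1 and 27.4 in P2+. It rose in P2+ over P2- by 3.13 (standard error 0.52, edgeR adjusted p = 0.00169), fell in P2- against WT by 2.90 (adjusted p = 0.00104) and fell in KO by 1.07 (standard error 0.19, adjusted p = 7.69e-04), while P2+ and WT overlapped (log2 fold change 0.21, adjusted p = 0.667). The fall in KO was not called when all 12 libraries were fitted together (adjusted p = 0.0903), and Mrvi1 shares 108 exonic bases with Gm16336 on the other strand. Lasp1, an actin-binding substrate, rose by 0.36 (adjusted p = 0.01) and fell in KO by 0.25 (adjusted p = 0.0124, and 0.0917 without KO replicate 3). Crem fell by 0.80 and Crtc1 rose by 0.39 in P2+ against P2-, and each call was lost on leaving out any 1 of 5 libraries (largest adjusted p = 0.128 for Crem and 0.132 for Crtc1). Crem shares 472 exonic bases with Gm6225 on the other strand. Creb1, the most abundant of these genes, had a log2 fold change of 0.17 (adjusted p = 0.19, and 0.0153 with the replicate number as a block).

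Of 8 tested receptors and G proteins, 3 rose and 1 fell in P2+ over P2- (all genes, 20.1% and 17.0%). Adora2a, an adenosine receptor coupled to adenylate cyclase, had 12.3, 12.3 and 12.6 CPM in P2-, 17.2, 23.1 and 21.2 in KO, 31.8, 24.4 and 31.0 in WT and 55.1, 47.3 and 56.4 in P2+. It rose over P2- by 2.11 (standard error 0.11, edgeR adjusted p = 4.73e-06) and over WT by 0.87 (adjusted p = 0.00109), and fell in KO by 0.52 (adjusted p = 0.0162). That last call was lost without WT replicate 1 (0.0571), WT replicate 3 (0.0548), KO replicate 1 (0.0966) or KO replicate 3 (0.0546). Gnai2, an inhibitory G protein, rose by 0.37 (adjusted p = 0.00393, and 0.059 by exactTest), and Gnas, the stimulatory one and the most abundant of the group, differed by 0.05 (adjusted p = 0.66) and shares exonic bases with Gm20721 (1469) and Nespas (988) on the other strand.

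Of the prostaglandin receptors, Ptger4 rose in KO by 0.61 (edgeR adjusted p = 0.00187). Ptger2 had 2.83 ± 1.16 CPM in WT and 0.733 ± 0.333 in KO (SD, n = 3 each), as a description. In KO against WT it passed the minimum on counts only through the WT libraries and was not tested when any of these was left out. Its call there, counted among the 8 that fell, is therefore not read as a result. Ptger2 rose in P2+ over P2- by 2.52 (adjusted p = 0.0197), a call lost without P2- replicate 3 (0.0657) or P2+ replicate 1 (0.074) or 3 (0.0518). The prostacyclin receptor Ptgir rose by 1.51 (edgeR adjusted p = 0.0471), with 4.63, 2.14 and 1.37 CPM in KO and 1.32, 0.676 and 0.801 in WT, and this call was lost without WT replicate 2 (0.138), WT replicate 3 (0.114), KO replicate 1 (0.323) or KO replicate 2 (0.0608). Ptger4 shares 1015 exonic bases with Gm15937, and Ptger2 shares 246 with Gm17173 and 144 with Gm49364, all on the other strand.

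Among 10 anchoring proteins that hold the cAMP kinase or phosphodiesterases in place, 4 rose and 1 fell in P2+ over P2- (all genes, 20.1% and 17.0%). Pde4dip, which binds Pde4d, rose by 0.72 (standard error 0.13, edgeR adjusted p = 0.00308), Akap7 by 0.70 (standard error 0.14, adjusted p = 0.0038) and Akap13, the most abundant, by 0.43 (standard error 0.07, adjusted p = 0.00121). Akap12 rose by 1.68 (adjusted p = 0.0154), a call lost without P2+ replicate 1 (0.0646), and Akap8 fell by 0.30 (adjusted p = 0.0129), a call lost without P2+ replicate 3 (0.0577) and by exactTest (0.0886). Pde4dip fell in KO by 0.56 (adjusted p = 0.00861), a call lost without WT replicate 2 (0.0547) or KO replicate 3 (0.0603).

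**Figure D5:**
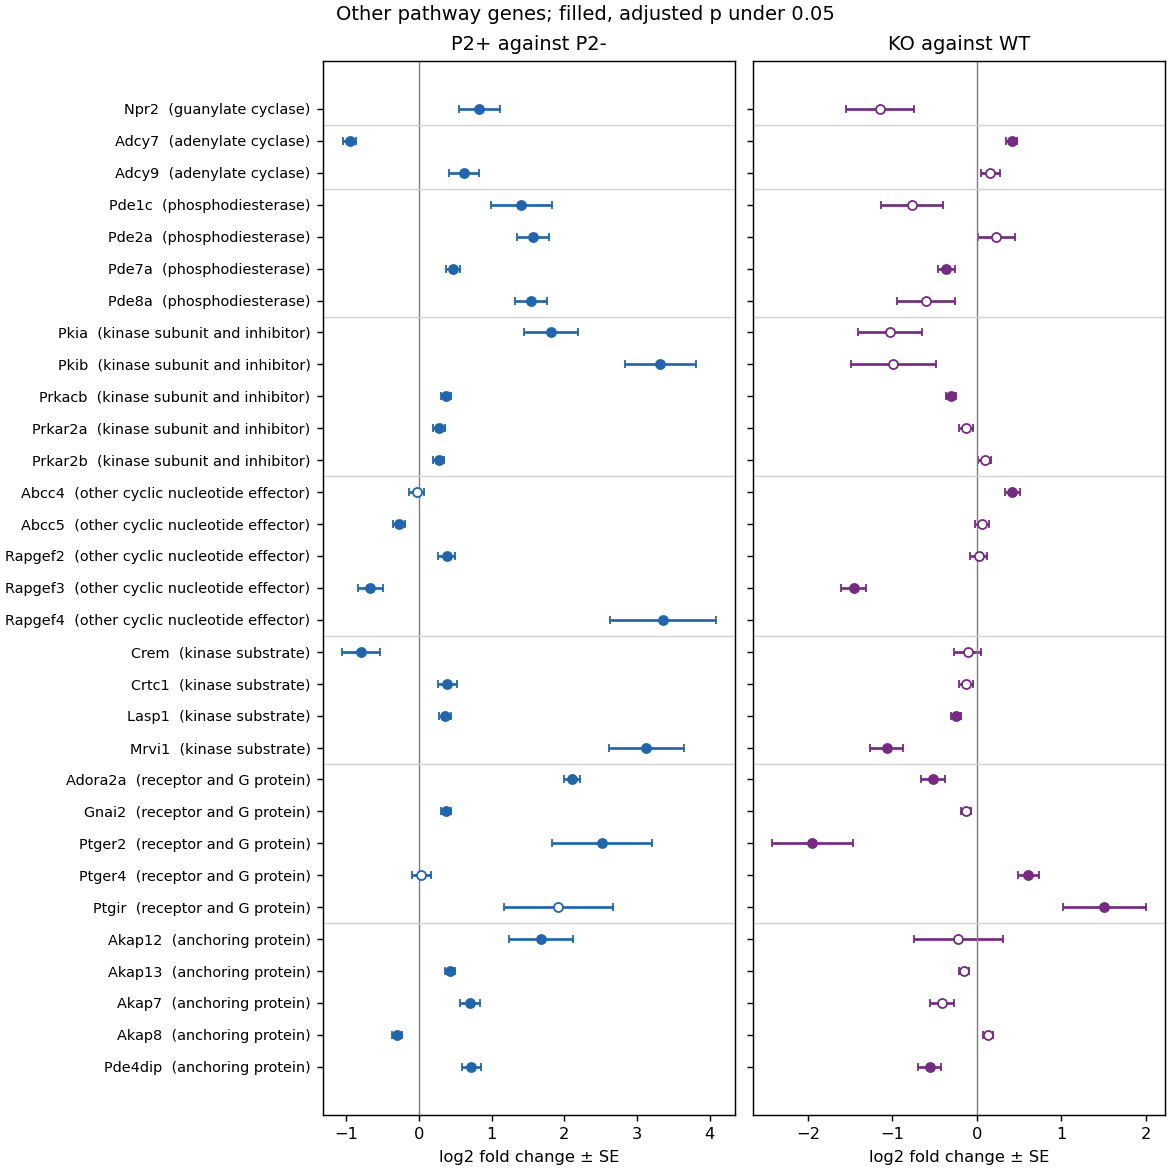
Log2 fold change with its standard error of the pathway genes that are no members, are described here and were called in P2+ against P2- (left) or KO against WT (right), grouped by class, with filled points for an adjusted p under 0.05, open points for the rest and no point where a gene was not tested. Adora2a (2.11) and Mrvi1 (3.13) lie right of 0 on the left and left of 0 on the right, and Adcy7 (-0.95) the reverse.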

How the data were processed

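The paper describes strand-specific libraries of poly(A) RNA from PreMegEs and does not name KO among them. For the deposited raw counts per gene, the authors mapped read pairs with Bowtie2 to GRCm38 and used featureCounts on Ensembl gene models. The strand setting and the treatment of reads with several alignments are not given in the sources used here.

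Counts were analysed with edgeR 4.0.16 in R 4.3.3. Each pair of groups was fitted alone, with TMM scaling, genes of at least 1 CPM in at least 3 libraries and the quasi-likelihood test, with Benjamini-Hochberg adjustment over all genes tested, and genes were called at an adjusted p under 0.05. CPM and RPKM were computed from TMM-scaled sizes and vM21 exonic lengths. The analysis was tested on simulated data. The members, the lists and the tests were chosen with earlier results of these data known. Pathway genes are named by rule: up to 4 per class called in P2+ against P2- (at least 5 CPM) or KO against WT, by size of change, and the most abundant of each class. Others (Pde1c, Prkar2b, Rapgef4 and Akap8) were named after their values were seen, to complete small counts. 1 gene of the list that was counted is not reported by name here. P2+ and P2- libraries of the same number deviated together from their group means (correlations across 9530 genes of 0.655, 0.822 and 0.692), so the numbers pair them. The paper gives 3 pooled mice per library, without naming KO, and n counts libraries. Alternatives were DESeq2 1.42.0 (test and size factors), edgeR's exactTest, no filter, a 2-fold minimum, all 12 libraries in 1 fit, the replicate block and leaving out each library.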

Additional observations from a re-analysis of the deposited data

How the results depend on the processing

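Over the alternatives run, none of the log2 fold changes of members or pathway genes that passed the threshold changed direction. With a minimum of 2-fold, pathway calls were 11 for P2+ against P2- (29 without it), 3 for P2+ against WT (8), 5 for P2- against WT (12) and 4 for KO against WT (13), members called in KO against WT were 2 (5), and calls over all genes were 1626 (4762), 497 (2138), 597 (2101) and 436 (1910). Pathway calls for P2+ against WT were 14 with no filter on low counts and 16 with DESeq2, and with all 12 libraries in the fit KO against WT gave 3 members and 1271 genes. Leaving out 1 library at a time, or replicate 2 of both fractions, gave 17 to 25 pathway calls for P2+ against P2-, 4 to 13 for P2+ against WT, 4 to 12 for P2- against WT and 9 to 12 for KO against WT, 4 to 5 members in KO against WT, and 3573 to 4554, 1213 to 2447, 1068 to 2189 and 1194 to 1648 genes. Over all genes, counts moved by over 1.5 times without WT replicate 1 or 2 in P2+ against WT (1230 and 1213), without WT replicates 1 to 3 in P2- against WT (1068, 1121 and 1383) and without KO replicate 3 (1194). With the replicate number as a block, pathway calls were 32, 9, 9 and 13, members 5, and genes 6514, 1901, 1469 and 2091 in the same order of comparisons. The block moved no count by over 1.5 times, and in P2+ against P2- it changed the call of Npr2, Pde4a and Creb1 given above and of Ptgir (adjusted p 0.00609) and Akap11 (0.0126). In the other 3 comparisons the numbers did not pair the libraries, since correlations between libraries of the same number ranged from -0.218 to 0.304. Summing both Pde4d rows left 5 members called in KO against WT. Replicate 2 of P2- and P2+ decided the Pde4b values (-0.14 to 1.11 on the log2 scale for P2+ against P2- without 1 library), and 11 to 29 counts per P2- library limit Gucy1b3 and Pde10a. The removal of replicate 2 of both fractions, the sum of the Pde4d rows and the longest transcript in the shares and levels were chosen after the data were seen. The causes were not tested.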
